A study of Homo sapiens with 2 samples.

Results

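The genes described here are 10 solute carriers that move amino acids across the plasma membrane, SLC3A2, SLC7A5, SLC7A11, SLC7A1, SLC7A3, SLC1A4, SLC1A5, SLC38A1, SLC38A2 and SLC6A9. They were taken by gene name from the deposited gene tables, and each of the 10 names matched 1 of the 25277 rows in both tables. HEK293 cells, an established human embryonic kidney line, were compared as wild-type (WT) cells and as cells in which the ER kinase PERK, encoded by EIF2AK3, had been knocked out with CRISPR/Cas9 (PERK-KO). Both were incubated for 12 h in OXPHOS medium, in which galactose and pyruvate replace glucose so that ATP must come mainly from oxidative phosphorylation, and no sample kept in glucose was analysed here. There was 1 sample per genotype. The methods state that single cells were seeded after transfection and that the clones were checked by immunoblotting, without saying how many clones the sequenced PERK-KO cells came from, so a difference between the samples cannot be told apart from a difference between clones or cultures.

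Amino acid transporters set which amino acids a cell can take up or trade. Some of them carry an amino acid in with sodium and build up its level inside, and others are exchangers that let an amino acid in only as another leaves. PERK phosphorylates the translation factor eIF2α when the ER is stressed. This slows general translation and favours translation of the transcription factor ATF4, which is known to induce many amino acid transporters and amino acid synthesis enzymes. The kinase GCN2, which senses uncharged tRNA, feeds into the same pathway.

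Expression was given as FPKM, fragments per kilobase of exon scaled by the number of fragments mapped, which can be compared between genes within a sample because it is scaled by transcript length. Each value is followed here by the lower and upper confidence limits that the authors deposited with it. These limits carry the counting error within a library and not the variation between cultures, and no test between genotypes was possible with 1 sample of each. A fold is PERK-KO over WT, and the range given after it runs from the lower limit in PERK-KO cells over the upper limit in WT cells to the reverse. Genes whose FPKM reached 1 in either sample were taken as tested, which left 14594 genes. In place of a test, a gene was counted as changed when its fold was over 1.5.

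The knocked-out gene and the markers of the line were examined first. EIF2AK3 had an FPKM of 5.61 (5.11 to 6.12) in the WT sample and 3.89 (3.44 to 4.34) in the knockout, which is 0.693 times the WT value. A transcript with an edited reading frame is still counted, so this level does not measure the protein. Of 5 genes known from HEK293 cells, VIM (418 and 378 in WT and PERK-KO cells) and NEFL (44.9 and 33.4) were well expressed in both samples, whereas IRS4 (0.121 and 27.1), NEFM (0.662 and 5.21) and INA (0.458 and 4.13) were below 1 in WT cells. The summed level of the 5, 464 in the WT sample and 448 in the PERK-KO sample, is mostly VIM. Among 12 markers of hepatocytes, leukocytes, fibroblasts, muscle, brown adipocytes and keratinocytes, COL1A1 alone reached an FPKM of 1 (4.97 and 4.62), the sum was 6.52 and 6.18, and ALB, CD3E, CIDEA and UCP1 were at 0 in both samples. The log2 differences of 7.81 for IRS4, 2.98 for NEFM and 3.17 for INA were larger than that of any transporter with a fold. Whether both samples came from the same HEK293 stock was not tested, and a difference between stocks cannot be told apart from the genotype in any result given here.

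All 9 transporters with a value above 0 in both samples were higher in the PERK-KO sample, with confidence intervals that did not overlap. SLC7A3, listed at 0 with limits of 0 in WT cells, could not have been lower and is left out of this count. Of all tested genes, 26.1% were higher in PERK-KO cells with intervals apart and 18.7% were lower. Whether intervals lie apart depends on the level of a gene, and these shares were not matched to the levels of the transporters. The fold exceeded 1.5 in SLC7A11, SLC6A9, SLC7A5, SLC7A1 and SLC3A2, 5 of the 9 transporters with a value above 0 in both samples, and SLC7A3, listed at 0 in WT cells, makes 6 of 10. For all tested genes the share over 1.5-fold higher was 10.1%, and it was 8.39% among genes at 1 or more in both. None of the 9 transporters above 0 in both samples was over 1.5-fold lower, against 7.54% of tested genes. The median log2 fold of the 9 transporters was 0.61, compared with 0.04 for the 14439 tested genes above 0 in both samples. SLC7A3 reached the limit of 1 only through PERK-KO cells, and if it is placed above the others the median of the 10 is 0.76. The genes were chosen with results of these data known, and these shares and medians describe the list only.

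**Figure D1:**
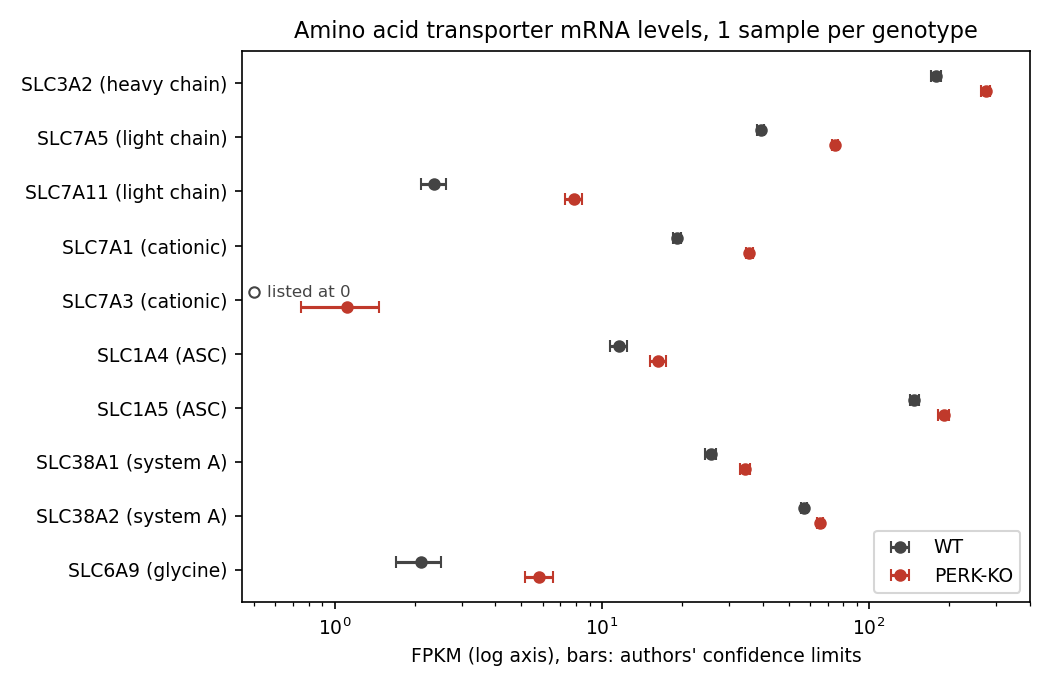
FPKM of the 10 transporters (vertical axis, with their role) in WT cells (grey) and PERK-KO cells (red) on a log axis, 1 sample per genotype, with bars for the authors' confidence limits. Among transporters above 0 in both samples, every red point lies to the right of its grey point with bars apart. Ordered by fold and not by level, these transporters run from SLC38A2 (57.0 and 65.5) to SLC7A11 (2.35 and 7.86). The open circle marks SLC7A3, listed at 0 in WT cells.

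The transporters spanned a wide range of levels. In WT cells the order from high to low was SLC3A2, SLC1A5, SLC38A2, SLC7A5, SLC38A1, SLC7A1, SLC1A4, SLC7A11, SLC6A9 and SLC7A3. Neighbours in this order had separate confidence intervals except for SLC7A11 (2.35, 2.11 to 2.60) and SLC6A9 (2.10, 1.70 to 2.50). In PERK-KO cells SLC7A5 stood above SLC38A2 (74.6 against 65.5) and SLC7A1 beside SLC38A1 (35.7 against 34.4, with overlapping intervals), while the other places were the same. Summed over the 10 genes, FPKM was 484 in the WT sample and 705 in the PERK-KO sample, or 1.46 times as much. SLC3A2 and SLC1A5 made up 67.5% and 65.8% of the sum, so it mostly reflects those genes.

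SLC3A2, the heavy chain also called CD98 or 4F2hc, is a glycoprotein that does not itself form the transport path but brings light chains of the SLC7 family to the cell surface. It lies on chromosome 11 from 62623484 to 62656355 (GRCh37, plus strand). It was the most abundant of the 10 in both samples, at percentile 96.0 of tested genes in WT cells. Its FPKM was 179 (171 to 186) without and 274 (263 to 285) with the knockout, a fold of 1.53 (1.41 to 1.66). The point estimate was over 1.5, but the lower end of the range was below it.

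SLC7A5, or LAT1, is the light chain that exchanges leucine and other large neutral amino acids for intracellular ones such as glutamine. It lies on chromosome 16 from 87863629 to 87903100 (minus strand). The WT sample had 39.3 (upper limit 40.6) and the PERK-KO sample 74.6 (72.6 to 76.6), a fold of 1.90 (1.79 to 2.02). Its log2 fold was 0.73 in place of 0.92 once the median of genes of like transcript length was subtracted. Reads of SLC7A5 can be shared with its pseudogenes. SLC7A5P1 had 1.90 and 5.87, SLC7A5P2 had 5.30 and 6.15, and with both added the fold was 1.86, so summing the 3 rows left the fold within its range.

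SLC7A11, or xCT, is the light chain that takes up cystine, the source of cysteine for glutathione, in exchange for glutamate. It lies on chromosome 4 from 139085248 to 139163503 (minus strand). It was low in WT cells, at 2.35 (2.11 to 2.60) or percentile 17.1 of tested genes, against 7.86 (7.31 to 8.40) or percentile 42.7 in PERK-KO cells. The fold of 3.34 (2.82 to 3.99) was the largest of the 9 that could be computed and lay at percentile 99.2 of the folds of tested genes. Subtracting the median of genes of like transcript length gave a log2 fold of 1.42 in place of 1.74. SLC7A11-AS1, an antisense gene that overlaps it, had 0.227 and 0.271 with overlapping intervals, and without strand information its reads and those of SLC7A11 cannot be told apart where they overlap.

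The known light chains that pair with SLC3A2 were then set beside it. Those outside the 10 genes were much lower than SLC7A5. SLC7A6 had 5.79 (5.30 to 6.28) and 7.72 (7.11 to 8.33) in the WT and PERK-KO samples, and SLC7A8 had 2.35 (1.96 to 2.75) and 2.85 (2.40 to 3.30). SLC7A7 and SLC7A10 stayed below 1 in both samples. The 6 light chains summed to 50.7 and 93.8, a fold of 1.85, with SLC7A5 at 77.6% and 79.6% of the sum. The share of SLC7A11 went from 4.64% to 8.38%, and that of SLC7A6 from 11.4% to 8.23%. SLC3A2 mRNA was 3.53 times the light chain sum in WT cells (3.19 to 3.90 by the limits) and 2.92 times in PERK-KO cells (2.68 to 3.17). The heavy chain mRNA was above the light chain sum in both samples. SLC3A2 has a shorter transcript than SLC7A5 and SLC7A11, and whether length accounts for the lower ratio in PERK-KO cells was not tested. With the median fold of genes of like length taken out of each chain, the PERK-KO ratio was 3.58 (3.29 to 3.90), no lower than in WT cells, and the folds were 1.64 for SLC3A2 and 1.61 for the light chain sum.

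**Figure D2:**
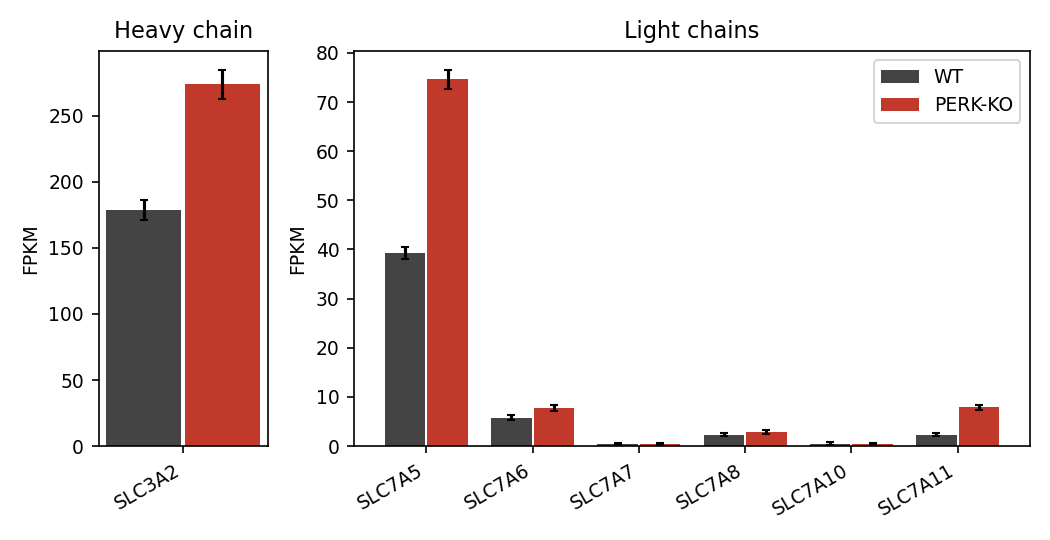
FPKM of SLC3A2 (left, heavy chain) and of its 6 light chains (right) in WT (grey) and PERK-KO cells (red), with the authors' confidence limits, 1 sample per genotype, and a separate scale for each panel. SLC7A5 is the tallest light chain in both samples (39.3 and 74.6), and SLC7A11 goes from 2.35 to 7.86.

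The cationic amino acid transporters SLC7A1 (CAT1) and SLC7A3 (CAT3) carry arginine, lysine and ornithine and work without a heavy chain. SLC7A1, on chromosome 13 from 30083551 to 30169825 (minus strand), was at 19.1 (18.4 to 19.8) in the WT sample and at 35.7 (34.7 to 36.8) in the PERK-KO sample. Its fold was 1.87, and the limits allowed no less than 1.75. Those limits leave out transcript length, and subtracting the median of genes of like length gave a log2 fold of 0.62 in place of 0.90. SLC7A3, on the X chromosome from 70145430 to 70150975 (minus strand), was listed at 0 in the WT sample and reached 1.11 (0.745 to 1.47) in the PERK-KO sample, near the bottom of the tested genes. No fold can be given against a value of 0. Its interval in PERK-KO cells corresponds to the counting error of about 37.2 fragments, a number computed from the interval itself and not an observed count. SLC7A1 was thus the main cationic transporter mRNA of the 2 in both samples.

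SLC1A5 (ASCT2) and SLC1A4 (ASCT1) are sodium-dependent exchangers of small neutral amino acids, and SLC1A5 is a main route for glutamine. SLC1A5, on chromosome 19 from 47278140 to 47291842 (minus strand), was at 148 (142 to 154) in the WT and 190.3 (182 to 199) in the PERK-KO sample. SLC1A4, on chromosome 2 from 65215579 to 65251000 (plus strand), had 11.6 (10.7 to 12.4) and 16.2 (15.1 to 17.4). The folds were 1.29 (1.18 to 1.40) for SLC1A5 and 1.41 (1.22 to 1.62) for SLC1A4, with ranges that overlapped each other. Neither passed 1.5-fold. SLC1A5 was 12.8 times as high as SLC1A4 in the WT sample and 11.7 times as high in the other.

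SLC38A1 (SNAT1) and SLC38A2 (SNAT2) take up glutamine, alanine and other small neutral amino acids together with sodium, and SLC38A2 is known for its induction when amino acids are scarce. They lie next to each other on chromosome 12, SLC38A1 from 46576841 to 46663208 and SLC38A2 from 46751971 to 46766645, both on the minus strand and 88.8 kb apart. For SLC38A1 the values were 25.6 (24.4 to 26.8) in the WT and 34.4 (33.0 to 35.8) in the PERK-KO sample, a fold of 1.35 (1.23 to 1.47). SLC38A2 had 57.0 (55.5 to 58.6) and 65.5 (63.7 to 67.3), and its fold of 1.15 (1.09 to 1.21) was the smallest of the 9. It lay at percentile 65.8 of the folds of tested genes, within their middle range. Long transcripts had somewhat higher folds in this pair of samples, and with the median of genes of like transcript length subtracted the log2 folds were 0.12 for SLC38A1 and 0.01 for SLC38A2, in place of 0.43 and 0.20, so SLC38A2 lay at the median of genes of its length.

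SLC6A9 (GLYT1) takes up glycine with sodium and chloride. On chromosome 1 from 44462155 to 44497164 (minus strand), it was at 2.10 (1.70 to 2.50) in the WT sample and 5.84 (5.14 to 6.54) in the PERK-KO sample. The fold of 2.78 (2.05 to 3.85) was second to that of SLC7A11, and their ranges overlapped. SLC7A11 and SLC6A9 were the 2 of the 9 transporters over 2-fold, against 3.28% of tested genes, and SLC7A3, with a WT value of 0, makes 3 of 10. These 3 were also the lowest of the 10 in WT cells.

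**Figure D3:**
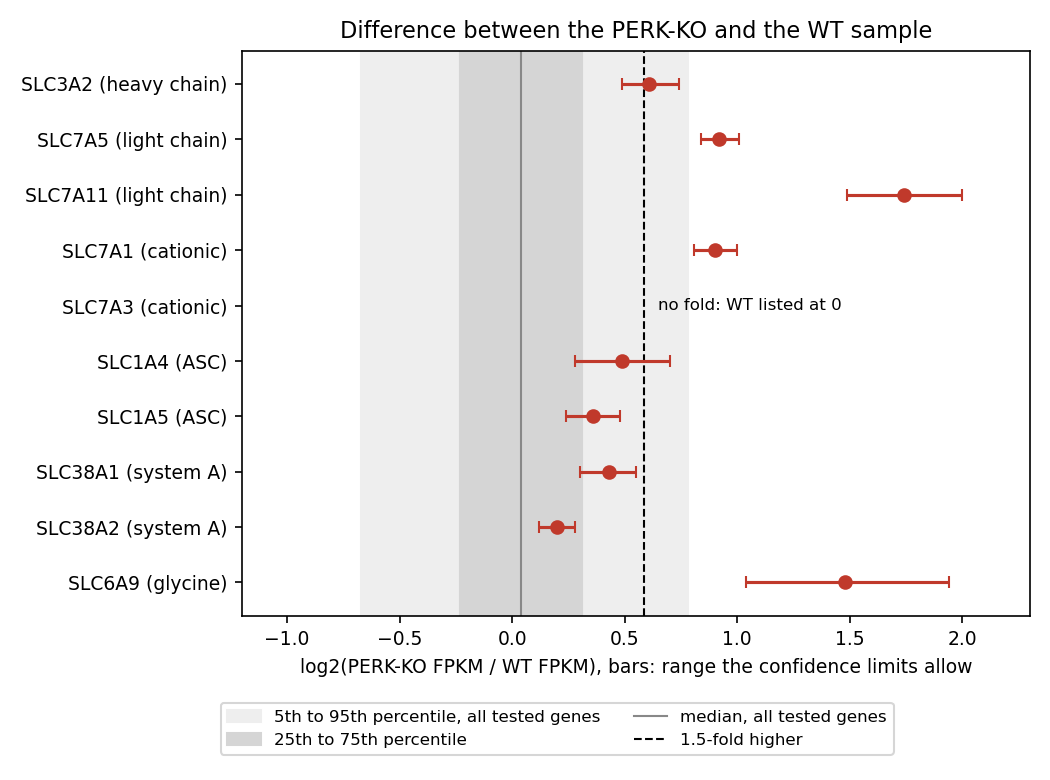
The log2 ratio of PERK-KO to WT FPKM for each transporter, with bars for the range that the confidence limits allow, beside the spread of all tested genes (light band from percentile 5 to 95, -0.67 to 0.78, dark band from percentile 25 to 75, -0.23 to 0.31, grey line at their median of 0.04, dashed line at 1.5-fold). SLC7A11 (1.74), SLC6A9 (1.48), SLC7A5 (0.92) and SLC7A1 (0.90) lie beyond the light band, and SLC38A2 (0.20) lies within the dark band. No value is corrected for transcript length.

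ATF4 with its C/EBP partners binds a composite element, written TGATGNAA in its shared part, and promoters of the transporters were searched for these letters on both strands. The windows were the RefSeq promoters (GRCh38.p14) from 250 bases before to 50 bases after each transcription start, and 8 of the 10 genes matched an entry, with 14 windows in all. SLC7A11 and SLC7A3 had no entry. The letters were found in 5 of the 14 windows, 1 each in SLC1A4, SLC3A2, SLC38A1, SLC7A1 and SLC1A5, compared with 3.62% of all 35116 windows, and thus in 5 of 8 genes compared with 4.46% of 27305 genes. The narrower TGATGCAA, tried after the first search, was in 2 of the 14 windows, those of SLC1A4 and SLC1A5, and in 0.866% of all windows. Genes with several windows have more chances of a match, and the 10 genes were chosen as amino acid transporters, a class in which ATF4 targets are known. The 30 bases around each match are shown 5′ to 3′ along the gene, with the matching letters in capitals, to show where the letters stand in the 5 genes that hold them. A match is not a measured binding site.

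SLC1A4: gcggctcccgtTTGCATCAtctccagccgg
SLC3A2: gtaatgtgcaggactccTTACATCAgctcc
SLC38A1: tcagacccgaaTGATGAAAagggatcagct
SLC7A1: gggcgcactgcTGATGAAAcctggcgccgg
SLC1A5: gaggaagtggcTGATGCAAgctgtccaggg

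Each of these matched a single place on its chromosome in GRCh37. The SLC1A4 sequence lies at chr2:65216515-65216544 on the plus strand, with the match in reverse orientation across the RefSeq start. That of SLC7A1 lies at chr13:30169800-30169829 on the minus strand, with the match in the 5′ untranslated region. The other 3 lie within introns of the canonical transcript, near RefSeq starts of other transcripts. That of SLC3A2 lies at chr11:62649191-62649220 (plus strand), with the match in reverse orientation from 38 to 45 bases after the start. The SLC38A1 sequence lies at chr12:46660285-46660314 (minus strand), with the match across the start, and that of SLC1A5 at chr19:47288150-47288179 (minus strand), with the match from position -97 to -90 before the start. The 5 genes with the letters had folds from 1.29 to 1.87. Of the 3 searched genes without them, SLC7A5 had 1.90, SLC6A9 2.78 and SLC38A2 1.15. Whether the letters go with the fold was not tested. Only 8 genes and short windows were searched, and SLC7A11 and SLC7A3 had no window.

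For comparison, 30 other plasma membrane amino acid transporters were examined. Of these, 18 stayed under 1 in both samples, and 12 were tested. SLC43A1, a carrier of large neutral amino acids, was at 4.67 (3.99 to 5.34) and 7.86 (6.94 to 8.79) in the WT and PERK-KO samples, with intervals apart. It and the taurine transporter SLC6A6 (1.83 and 3.10) were the 2 of the 12 over 1.5-fold higher, and none was over 1.5-fold lower. In 5 of the 12 the intervals were apart with the higher value in PERK-KO cells, and the median log2 fold was 0.23. The highest levels among them were 10.4 in the WT sample and 13.7 in the PERK-KO sample, from different genes. By contrast, 7 of the 10 genes described here were above 10 in both samples.

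Among 11 genes of the ATF4 pathway outside transport, all 11 were higher in PERK-KO cells, 6 by over 1.5-fold and 9 with intervals apart, and the median log2 fold was 0.63. ATF4 mRNA itself went from 342 (326 to 358) in the WT sample to 506 (483 to 528) in the PERK-KO sample. The genes over 1.5-fold were ASNS, which makes asparagine (32.5 and 78.7), the serine synthesis genes PSAT1 (40.4 and 82.7) and PHGDH (97.7 and 152), CHAC1, which degrades glutathione (3.44 and 7.26), the leucine sensor SESN2 (18.2 and 30.5) and the transcription factor ATF3 (37.2 and 57.7). DDIT3, which encodes CHOP, was at 58.2 (53.7 to 62.8) and 66.2 (61.1 to 71.4), with overlapping intervals.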

How the data were processed

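Polyadenylated RNA of 1 WT and 1 PERK-KO HEK293 sample was sequenced. Per the methods and the submitters' processing notes, reads were aligned with TopHat2 2.0.13 to GRCh37/hg19 and gene levels estimated with Cufflinks 2.2.1. The authors deposited FPKM for each gene with its confidence limits. The annotation and any strand setting are not given in the sources used here. Read totals are not in the columns used, so depth is unknown. The limits were read as 2 standard deviations to either side, from which the number of fragments with the same counting error was computed. For genes between 1 and 10 FPKM, the median half-width of the limits was 13.6% (WT) and 14.8% (PERK-KO).

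Folds were taken without a pseudocount. Other filters, pseudocounts, scalings and a 2-fold threshold were tried as alternatives. Gene starts were converted to count from 1. Strands and transcript lengths came from canonical transcripts of GENCODE 44 on GRCh37. Python 3.11.15 with numpy 2.4.6, pandas 2.3.3 and matplotlib 3.10.9 was used, and the counting of folds was tested on simulated data. All members were named whatever their values. From the related lists, genes with an FPKM of at least 5, over 1.5-fold and with intervals apart were named, as were the light chains of SLC3A2. SLC6A6, ATF4, DDIT3 and SLC7A11-AS1 were named after their values had been seen. The members and lists were chosen with earlier results of these data known.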

Additional observations from a re-analysis of the deposited data

How the results depend on the processing

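With 2-fold in place of 1.5-fold, 2 of the 9 transporters above 0 in both samples were higher in PERK-KO cells instead of 5. These 2 were SLC7A11 and SLC6A9, and the shares of all tested genes were 3.28% at 2-fold and 10.1% at 1.5-fold. SLC7A3, listed at 0 in WT cells, could only be counted as higher and makes 3 of 10 instead of 6. With SLC7A3 counted where it passed the filter, the count was 5 or 6 under the other alternatives and none was over 1.5-fold lower. SLC3A2 fell below 1.5-fold when the median log2 fold of tested genes was set to 0, a shift of -0.04, and SLC7A3 dropped out when an FPKM of 5 in either sample, or a value above 0 in both, was required. The filter of at least 1 in both samples was chosen with the data seen. The median log2 fold of 0.61 stayed from 0.58 to 0.62. Of 81 recomputed log2 folds of single transporters none changed sign, and 6 moved outside the range of their limits. Of these, 5 came from subtracting the running median over transcript length, which gave 1.42 for SLC7A11, 0.73 for SLC7A5 and 0.62 for SLC7A1 beside the values for SLC38A1 and SLC38A2 in the report, and 1 from a pseudocount of 1, which gave 1.40 for SLC7A11. With SLC7A5 and SLC7A11 as the only light chains, SLC3A2 was 4.29 times their sum in WT cells and 3.32 times in PERK-KO cells, instead of 3.53 and 2.92. With the length trend subtracted, an alternative also chosen with the data seen, the ratio in PERK-KO cells was 3.58. No paired analysis was possible because each genotype has 1 sample, and for the same reason no sample could be left out.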

Other observations

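Genes that use, move or sense amino acids inside the cell were listed separately. Of 9 genes of cystine use and glutathione, HMOX1, which degrades haem, was the 1 over 1.5-fold higher in PERK-KO cells (9.53, 8.35 to 10.7, against 15.2, 13.6 to 16.7). GCLM and GCLC, the subunits of the enzyme that starts glutathione synthesis, had 10.2 and 15.2, and 15.7 and 20.5, with intervals apart and folds under 1.5. GPX4, the glutathione peroxidase that acts on lipid peroxides, was lower in PERK-KO cells (362, 345 to 379, and 257, 245 to 270.3). In all, 4 of the 9 were higher and 2 lower with intervals apart, and the median log2 fold was 0.06. GCLM, GCLC and GPX4 are named with their values seen.

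Of 9 tested lysosomal and other intracellular amino acid transporters and of 10 genes of amino acid sensing, none changed by over 1.5-fold, and both medians were 0.20. The sensing list holds SESN1 (22.7 and 16.6) and SESN3 (8.49 and 10.9), whereas SESN2, over 1.5-fold higher, was counted with the ATF4 pathway genes. In the former, SLC36A4 was higher in PERK-KO cells (14.7 and 20.7) and SLC38A10 lower (38.8 and 30.3), both with intervals apart, and these and the sestrins also were named with their values seen.

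With the 10 transporters themselves and genes overlapping them left out, the nearest tested genes on either side on the chromosome were 18 different genes. Their log2 folds ran from -0.20 for SLC22A9, 481 kb from SLC3A2, to 0.58 for CCRN4L, 773 kb from SLC7A11. None was over 1.5-fold higher or lower, 10 were higher and the median was 0.01. Distances ran from 0.123 to 939 kb, so not all of these genes are close neighbours. This comparison was chosen with the data seen.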
